A study of Mus musculus with 49 samples.

Results

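Neocortical mRNA of 10 neuropeptide precursor genes was followed in 49 mice: Penk, Pdyn, Pnoc, Tac1, Tac2, Crh, Adcyap1, Cort, Nts and Cartpt. The genes were taken by symbol from the 45252 genes of the count table, and all 10 passed the filter on low counts that left 18220 genes for testing. The rNLS8 model carries a NEFH-tTA transgene, in which the neurofilament heavy chain promoter drives the tetracycline transactivator in neurons, together with a tetO-hTDP-43ΔNLS transgene for a human TDP-43 that lacks the nuclear localization signal. Bigenic mice carry both alleles, while their monogenic littermates carry a single allele and do not express the protein when doxycycline is removed. All mice were of mixed C57BL/6J x C3H/HeJ strain, were kept on doxycycline until 25.5 weeks of age to hold the transgene off, and were killed 3 weeks later at 28.5 weeks. From 8 weeks of age they were injected with PBS or with 40 µg of TDP-43 peptides coupled to ovalbumin. The groups were 17 monogenic mice given PBS (ctrl-PBS), 10 bigenic mice given PBS (TDP-PBS), 10 bigenic mice given peptides 10 and 12 from the glycine-rich domain (TDP-10+12) and 12 bigenic mice given the phosphorylated peptide 15 (TDP-15). Each library came from 1 mouse and from about 30 mg of neocortex.

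Neuropeptides are made as long precursors that prohormone convertases cut in dense-core vesicles, and they act through G protein-coupled receptors, often beside GABA or glutamate released from the same neuron. In the neocortex most of them mark particular classes of inhibitory interneurons, while some are made by excitatory cells. Several of these genes, above all Penk, Pdyn and Tac1, are far more abundant in the projection neurons of the striatum, which lies directly under the cortex. Adcyap1, Crh and Penk are known as genes whose transcription follows neuronal activity.

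Library totals lay between 17775738 and 21033608 counts. Genes that define the labelled tissue were present in every mouse, for example Slc17a7, the vesicular glutamate transporter of cortical excitatory neurons, at 1379 to 2230 CPM, counts scaled to library size. Gfap, the marker of reactive astrocytes, separated the genotypes almost completely, at 87.3 to 199 CPM in ctrl-PBS and 181 to 1133 CPM in the bigenic mice. The libraries differed in how much marker RNA of neighbouring tissue they held. The summed CPM of 16 striatal markers ran from 491 to 2209 in ctrl-PBS (median 1451), from 843 to 2570 in TDP-PBS (median 1167), from 827 to 2108 in TDP-10+12 (median 1162) and from 704 to 1560 in TDP-15 (median 1095). That of 7 olfactory bulb markers ran from 10.8 to 236 in ctrl-PBS and from 11.8 to 130.0 in the bigenic groups. Of 9 hypothalamic and pituitary markers 8 did not pass the filter. The precursor genes Avp, Oxt, Pmch, Hcrt and Agrp had at most 32 counts in any mouse, while Prl, the prolactin gene of the pituitary, reached 1495 counts in its highest mouse but was held by too few mice to be tested.

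In the mouse genome GRCm38, the build the authors aligned to, Penk and Cort lie on chromosome 4, Tac2 and Nts on chromosome 10 and the other members on chromosomes of their own. Overlaps with other annotated genes were found for Penk, Crh and Adcyap1. Penk (chr4:4133536-4138815) overlaps A830012C17Rik on the opposite strand, Crh (chr3:19693401-19695396) overlaps Gm42189 and Adcyap1 (chr17:93198245-93206541) overlaps Gm32465. Whether the counting used strand is not given in the sources used here, so reads of these pairs may have been mixed. RefSeq start windows of GRCm38.p6 were on hand for Pdyn, Tac1, Tac2, Adcyap1, Cort, Nts and Cartpt. The 250 bases before a start are printed for Tac2 and Adcyap1, since these were the most clearly changed genes and moved in opposite directions. Both runs are free of annotated exons, and the Adcyap1 run lies inside the gene span, before an inner start. They are chr10:127724228-127724477 on the plus strand for Tac2 and chr17:93198767-93199016 on the plus strand for Adcyap1, and capitals mark matches to the motifs named after them.
Tac2: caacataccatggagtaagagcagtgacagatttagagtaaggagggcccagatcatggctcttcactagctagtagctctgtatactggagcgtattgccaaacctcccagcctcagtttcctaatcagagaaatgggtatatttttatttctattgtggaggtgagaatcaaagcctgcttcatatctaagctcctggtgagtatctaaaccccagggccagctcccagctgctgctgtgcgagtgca
Adcyap1: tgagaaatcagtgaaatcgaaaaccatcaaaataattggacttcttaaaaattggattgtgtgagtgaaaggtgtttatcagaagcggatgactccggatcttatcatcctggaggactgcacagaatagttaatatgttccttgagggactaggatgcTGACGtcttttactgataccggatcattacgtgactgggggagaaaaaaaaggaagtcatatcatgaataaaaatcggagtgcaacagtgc
The letters searched on both strands were the cyclic AMP response element (TGACGTCA), its half-site (TGACG, which the whole element also contains) and the AP-1 site (TGANTCA). Adcyap1 held 1 half-site, 91 bases before this start, and Tac2 held none of the 3 motifs. Among 32851 such windows of mouse genes, 1.55% held the whole element, 17.8% a half-site and 6.75% an AP-1 site. Of the other members, Cort held 1 half-site and Pdyn none of the motifs in windows free of annotated exons. The windows of Cartpt, Tac1 and Nts overlap annotated exons, by 250, 182 and 68 of their 250 bases, so that their matches do not all lie upstream of the gene. In these, Cartpt held the whole element 112 bases before the listed start, Tac1 held 2 half-sites, and Nts held 1 half-site and 1 AP-1 site.

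On a scale of CPM per kilobase of exon, which allows levels to be compared between genes, Penk stood far above the rest in ctrl-PBS at 144 ± 57.8 (SD, n = 17). Its lowest mouse, at 44.4, was still above the highest mouse of any other member, at 13.3 for Pdyn. Pdyn followed at 10.0 ± 1.97 CPM per kilobase. Tac2 (7.58 ± 1.25), Cort (7.26 ± 1.17) and Tac1 (6.70 ± 2.74) did not differ beyond their spread, nor did Cartpt (4.11 ± 1.71), Pnoc (3.79 ± 0.76) and Adcyap1 (3.67 ± 0.54). Crh (2.68 ± 0.68) and Nts (1.14 ± 0.57) were lowest. Nts rested on only 7 to 70 counts per mouse, against 1356 to 7922 for Penk.

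Each bigenic group was compared with ctrl-PBS by the quasi-likelihood test of edgeR, and p-values were adjusted over the 18220 genes tested after Benjamini and Hochberg (edgeR adjusted p, threshold 0.05). In TDP-PBS, 3 of the 10 genes passed, Tac2 higher and Adcyap1 and Crh lower, where 43.5% of all genes tested passed. TDP-10+12 gave the same 3 genes (background 40.8%). In TDP-15, 6 passed (background 46.9%): Tac2 was higher and Adcyap1, Crh, Penk, Tac1 and Cartpt were lower. The same 6 passed when the mean of the 3 bigenic groups was set against ctrl-PBS (background 54.2%). The shares of members called, 3 or 6 of 10, were on either side of these backgrounds and did not stand apart from them. The 3 comparisons share the 17 ctrl-PBS mice, so they are not independent of each other. The median log2 fold change of the 10 genes was -0.17 in TDP-PBS, -0.19 in TDP-10+12 and -0.47 in TDP-15, beside medians of -0.000388, 0.00306 and -0.0015 over all genes tested. In bulk tissue, fewer cells of a type and less RNA per cell cannot be told apart.

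**Figure D1:**
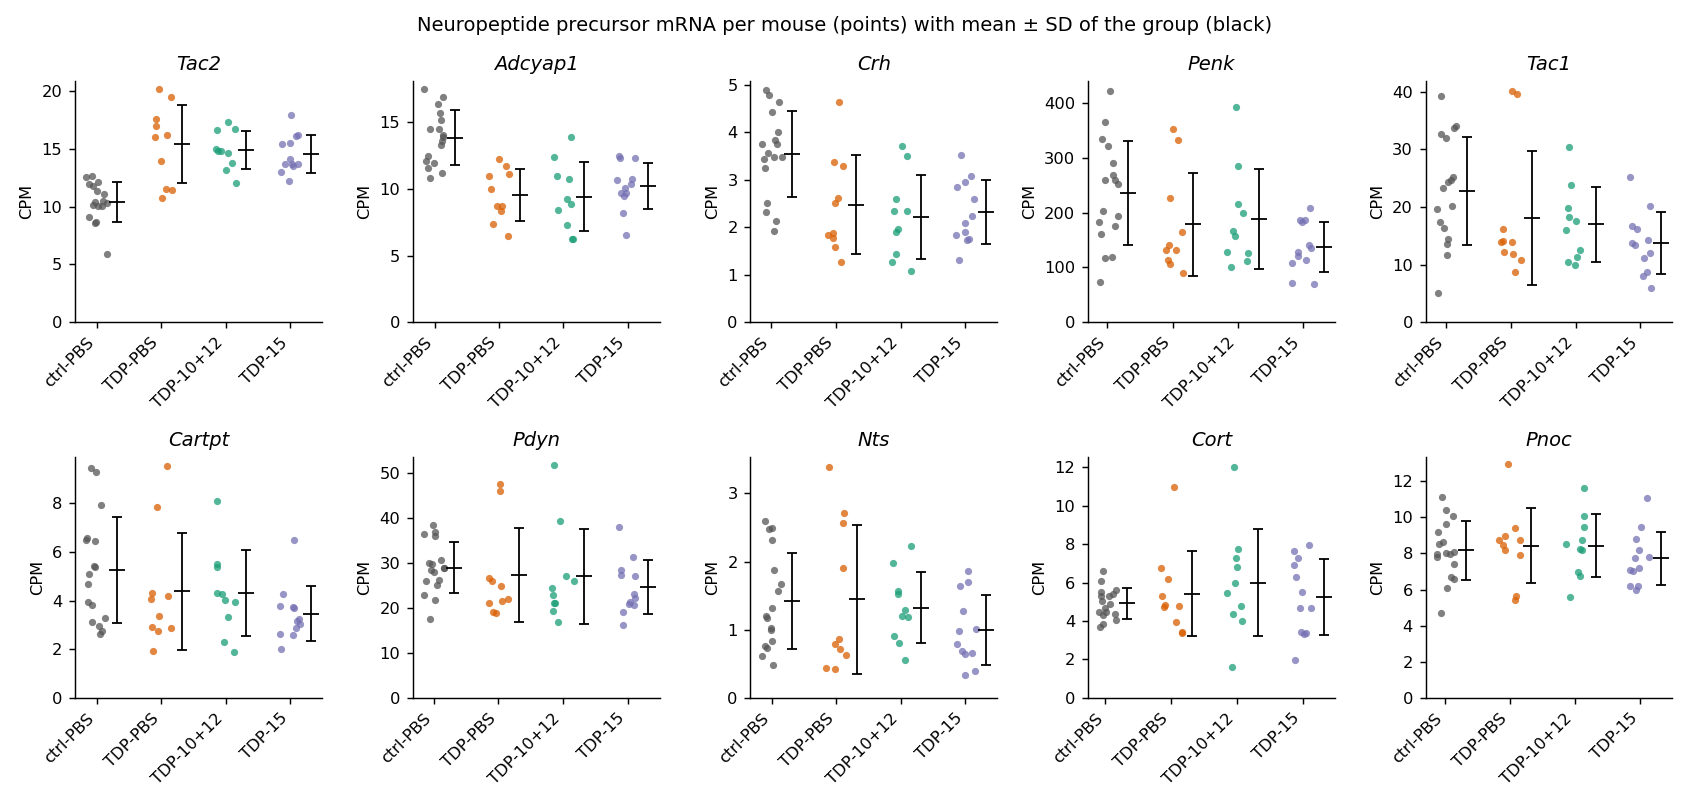
Level of each precursor mRNA in every mouse, in CPM on a linear axis from 0, by group; points are mice and black bars the mean ± SD of the group. Tac2 is shifted up and Adcyap1 and Crh down in all 3 bigenic groups, while Penk, Tac1 and Pdyn spread widely in every group and Cort spreads more widely in the bigenic mice.

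**Figure D2:**
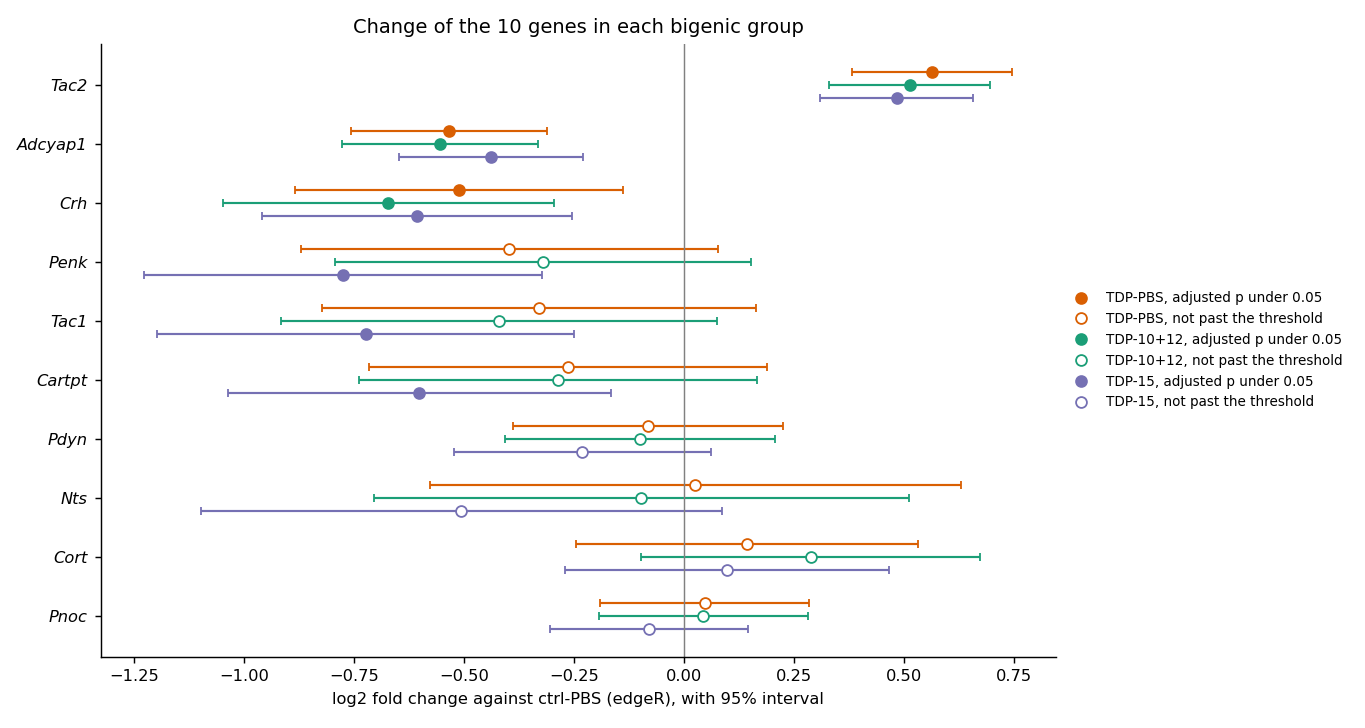
Log2 fold change against ctrl-PBS (x axis) of each gene (y axis) in the 3 bigenic groups with 95% intervals; filled points passed an edgeR adjusted p of 0.05. The intervals of Tac2, Adcyap1 and Crh exclude 0 in all 3 groups, and those of Penk, Tac1 and Cartpt only in TDP-15.

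Among the tachykinin genes, Tac2, the precursor of neurokinin B, was the only member that rose. In ctrl-PBS it lay between 5.91 and 12.7 CPM with a median of 10.4. TDP-PBS ran from 10.7 to 20.2 CPM (median 16.2), TDP-10+12 from 12.1 to 17.3 (median 14.8) and TDP-15 from 12.2 to 17.9 (median 13.9). All 32 bigenic mice were above the ctrl-PBS median and 27 of them above every ctrl-PBS mouse. The log2 fold change was 0.56 ± 0.09 (SE) in TDP-PBS (edgeR adjusted p = 1.09e-06), 0.51 ± 0.09 in TDP-10+12 (edgeR adjusted p = 7.13e-06) and 0.48 ± 0.09 in TDP-15 (edgeR adjusted p = 6.71e-06). For the mean of the bigenic groups this came to 43.3% more Tac2 mRNA. TDP-PBS was the most varied group, with a coefficient of variation of 21.9% against 11.1% in TDP-10+12 and 11.2% in TDP-15, and 3 of its 10 mice overlapped with ctrl-PBS.

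Tac1, the precursor of substance P and neurokinin A, went the other way. Its CPM ran from 5.11 to 39.2 in ctrl-PBS (median 23.3), from 8.73 to 40.1 in TDP-PBS (median 13.9), from 9.98 to 30.3 in TDP-10+12 (median 16.8) and from 5.86 to 25.1 in TDP-15 (median 13.5). The groups overlapped broadly, yet 27 of 32 bigenic mice lay below the ctrl-PBS median. Only TDP-15 passed the test (log2 fold change -0.72 ± 0.24, edgeR adjusted p = 0.00953). The value was -0.33 ± 0.25 in TDP-PBS (edgeR adjusted p = 0.288) and -0.42 ± 0.25 in TDP-10+12 (edgeR adjusted p = 0.173). In TDP-PBS, 8 mice lay at 16.1 CPM or less while replicates 26 and 217 reached 39.6 and 40.1.

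Adcyap1 encodes PACAP, a peptide of excitatory neurons that signals through cyclic AMP. It ranged from 10.8 to 17.5 CPM in ctrl-PBS (median 13.9), from 6.43 to 12.3 in TDP-PBS (median 9.36), from 6.21 to 13.9 in TDP-10+12 (median 9.02) and from 6.53 to 12.4 in TDP-15 (median 10.2). Of the 32 bigenic mice 31 were below the ctrl-PBS median and 22 below every ctrl-PBS mouse. It fell in all 3 groups, with log2 fold changes of -0.53 ± 0.11 in TDP-PBS (edgeR adjusted p = 8.54e-05), -0.55 ± 0.11 in TDP-10+12 (edgeR adjusted p = 5.27e-05) and -0.44 ± 0.10 in TDP-15 (edgeR adjusted p = 0.000426). Of 12 markers of neocortical excitatory neurons, 6 were lower and 1 higher in TDP-PBS, with Etv1 (log2 fold change -0.58) and Rasgrf2 (-0.58) the lowest and Slc17a7 at -0.03 (edgeR adjusted p = 0.716). Of all genes tested, 21.6% were lower and 21.9% higher in TDP-PBS. The summed CPM of the 12 markers was 2331 to 3238 in ctrl-PBS and 2113 to 3013 in the bigenic groups. Their part in the fall of Adcyap1 was not tested.

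Crh, corticotropin-releasing hormone, is made in the cortex by a subset of interneurons. It lay between 1.91 and 4.89 CPM in ctrl-PBS (median 3.57), 1.28 and 4.64 in TDP-PBS (median 2.19), 1.09 and 3.70 in TDP-10+12 (median 2.15) and 1.31 and 3.52 in TDP-15 (median 2.17). The medians of the 3 bigenic groups were nearly the same, and 30 of 32 mice were below the ctrl-PBS median. Crh fell in TDP-PBS (log2 fold change -0.51 ± 0.19, edgeR adjusted p = 0.0213), TDP-10+12 (-0.67 ± 0.19, edgeR adjusted p = 0.00295) and TDP-15 (-0.61 ± 0.18, edgeR adjusted p = 0.00357). The call in TDP-PBS was the least firm: it was lost without TDP-PBS replicate 233 (log2 fold change -0.42, edgeR adjusted p = 0.061), without replicate 270 (-0.44, edgeR adjusted p = 0.0549) and with sex as a covariate (-0.42, edgeR adjusted p = 0.0573). Of 17 inhibitory neuron markers, 4 were lower and 1 higher in TDP-PBS, from Lamp5 (log2 fold change -1.51) and Sp8 (-0.84, edgeR adjusted p = 0.0915) to Lhx6 (0.22) and Sncg (0.27, edgeR adjusted p = 0.144). Among all genes tested the shares in TDP-PBS were 21.6% lower and 21.9% higher. The summed CPM of the 17 markers was 1335 to 1768 in ctrl-PBS and 1040 to 1530 in the bigenic groups. Their part in the fall of Crh was not tested.

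The opioid family holds Penk, the enkephalin precursor, Pdyn, the dynorphin precursor, and Pnoc, the nociceptin precursor. Penk ranged from 72.6 to 422 CPM in ctrl-PBS (median 252), from 89.2 to 352 in TDP-PBS (median 136), from 101 to 392 in TDP-10+12 (median 162) and from 68.8 to 208 in TDP-15 (median 131). All 12 TDP-15 mice and 8 of 10 mice in each of the other bigenic groups lay below the ctrl-PBS median. Penk passed the test in TDP-15 alone (log2 fold change -0.77 ± 0.23, edgeR adjusted p = 0.00369). It stood at -0.40 ± 0.24 in TDP-PBS (edgeR adjusted p = 0.175) and -0.32 ± 0.24 in TDP-10+12 (edgeR adjusted p = 0.287).

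Pdyn ran from 17.4 to 38.5 CPM in ctrl-PBS (median 28.8), from 18.8 to 47.4 in TDP-PBS (median 23.3), from 16.9 to 51.8 in TDP-10+12 (median 23.65) and from 16.1 to 38.0 in TDP-15 (median 22.6). Its medians were lower in the bigenic groups and 26 of 32 mice were below the ctrl-PBS median, but the few highest mice were also bigenic and no comparison passed. The log2 fold change was -0.08 in TDP-PBS (95% interval -0.39 to 0.23), -0.10 in TDP-10+12 (-0.41 to 0.21) and -0.23 in TDP-15 (-0.52 to 0.06), with edgeR adjusted p = 0.697, 0.64 and 0.192. Pnoc had the flattest profile of the 10 genes. It lay between 4.69 and 11.1 CPM in ctrl-PBS (median 8.03), 5.396 and 12.9 in TDP-PBS (median 8.60), 5.56 and 11.6 in TDP-10+12 (median 8.41) and 5.99 and 11.05 in TDP-15 (median 7.48). For the mean of the bigenic groups its log2 fold change was 0.00 with a 95% interval of -0.18 to 0.18 (edgeR adjusted p = 0.978), so that a change of Tac2's size lay outside the interval.

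The 3 genes that spread most together, Penk, Tac1 and Pdyn, followed the striatal marker RNA of the same mouse. After the group means had been removed, the correlation of log2 CPM with the mean of the 16 striatal markers over 49 mice was r = 0.93 for Penk (Spearman's rho 0.94), 0.90 for Tac1 (rho 0.88) and 0.77 for Pdyn (rho 0.79). Each had a permutation p of 1e-05, the smallest that 100000 resamples can give, and an adjusted p of 0.00016 over the 80 relations of 10 genes and 8 marker lists. Without the 2 mice farthest from the median marker level, r was 0.93, 0.87 and 0.74. Adcyap1 ran against the striatal markers (r = -0.47, rho -0.51, adjusted permutation p = 0.0024, r = -0.53 without the 2 mice). Cartpt followed them loosely (r = 0.41, rho 0.43, adjusted permutation p = 0.0259, r = 0.42 without the 2 mice). Tac2, Crh, Cort, Pnoc and Nts did not pass, with r between -0.27 and 0.35. Of the 16 striatal markers, 2 were lower and 0 higher in TDP-PBS, from Scn4b (log2 fold change -0.82) and Ido1 (-0.57, edgeR adjusted p = 0.0827) to Six3 (0.28, edgeR adjusted p = 0.365) and Drd2 (0.43, edgeR adjusted p = 0.147), and 5 were lower and 0 higher for the mean of the bigenic groups. In TDP-15, where Penk, Tac1 and Cartpt passed the test, 8 of the 16 were lower and 0 higher, and the list had a median of -0.48. Of all genes tested, 21.6% were lower in TDP-PBS, 27% for the mean of the bigenic groups and 23.2% in TDP-15.

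With the striatal marker mean of each mouse as a covariate, the fall of Penk in TDP-15 shrank from -0.77 to -0.34 (edgeR adjusted p = 0.00106), while that in TDP-PBS stood at -0.31 and passed (edgeR adjusted p = 0.00338) and that in TDP-10+12 stood at -0.11 (edgeR adjusted p = 0.337). Tac1 in TDP-15 went from -0.72 to -0.27 (edgeR adjusted p = 0.0339), and its values in TDP-PBS and TDP-10+12 were -0.26 (edgeR adjusted p = 0.0514) and -0.17 (edgeR adjusted p = 0.215). As 8 of the 16 markers were themselves lower in TDP-15, the amount of striatal tissue and a change within it cannot be told apart. Set against the summed striatal markers of the same mouse, Penk CPM amounted to 16.1 ± 2.09% in ctrl-PBS, 12.6 ± 2.60% in TDP-PBS, 14.6 ± 3.87% in TDP-10+12 and 12.1 ± 1.44% in TDP-15 (mean ± SD). Tac1 CPM amounted to 1.56 ± 0.36%, 1.26 ± 0.34%, 1.34 ± 0.26% and 1.21 ± 0.21% in the same order, and Pdyn CPM to 2.17 ± 0.61%, 2.02 ± 0.32%, 2.16 ± 0.53% and 2.24 ± 0.33%. Pdyn relative to the striatal markers thus differed between the groups by less than their spread. Tac2, Adcyap1 and Crh kept their calls in all 3 groups with this covariate, at log2 fold changes of 0.50, -0.57 and -0.62 for the mean of the bigenic groups.

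**Figure D3:**
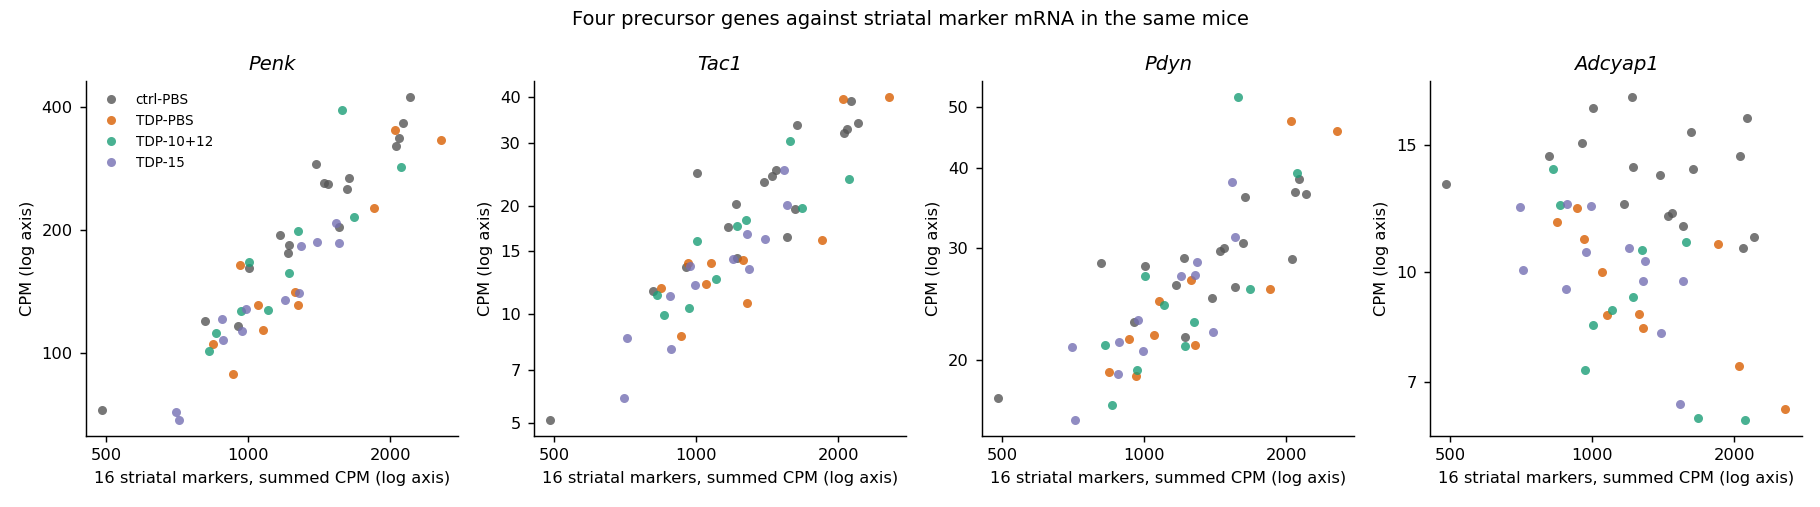
CPM of Penk, Tac1, Pdyn and Adcyap1 (y axes, log scale) against the summed CPM of 16 striatal markers (x axis, log scale) in each of 49 mice, coloured by group. Penk, Tac1 and Pdyn climb with the striatal markers within every group, whereas Adcyap1 declines and its ctrl-PBS mice lie above most bigenic mice across the whole range.

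Cartpt, which encodes the CART peptides, ranged from 2.64 to 9.43 CPM in ctrl-PBS (median 5.10), from 1.93 to 9.52 in TDP-PBS (median 3.71), from 1.88 to 8.08 in TDP-10+12 (median 4.14) and from 1.997 to 6.48 in TDP-15 (median 3.20). The groups overlapped, with 26 of 32 bigenic mice below the ctrl-PBS median. It fell in TDP-15 (log2 fold change -0.60 ± 0.22, edgeR adjusted p = 0.0189), a call lost with the striatal covariate (-0.42, edgeR adjusted p = 0.0754), and stood at -0.26 ± 0.23 in TDP-PBS and -0.29 ± 0.23 in TDP-10+12 (edgeR adjusted p = 0.361 and 0.323). Its call for the mean of the bigenic groups (-0.38 ± 0.17, edgeR adjusted p = 0.0479) was lost in 34 of 49 refits with 1 mouse left out, which gave values from -0.44 to -0.31. Nts, the neurotensin precursor, lay between 0.485 and 2.60 CPM in ctrl-PBS (median 1.21), 0.428 and 3.38 in TDP-PBS (median 0.826), 0.558 and 2.23 in TDP-10+12 (median 1.25) and 0.33 and 1.86 in TDP-15 (median 0.885). No comparison passed for Nts, and the 95% interval of its log2 fold change was wide, from -0.58 to 0.63 in TDP-PBS and from -1.10 to 0.08 in TDP-15.

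Members that followed the striatal markers, and Nts, also varied with marker RNA of other cell types and tissues. Within groups, Cartpt had r = -0.67 with the 12 excitatory markers (rho -0.66, adjusted permutation p = 0.00016) and r = 0.62 with the 17 inhibitory markers (rho 0.52, adjusted permutation p = 0.00016). Nts had r = -0.52 (rho -0.49, adjusted permutation p = 0.0039) and r = 0.53 (rho 0.58, adjusted permutation p = 0.000933) with the same lists. With the 7 olfactory bulb markers, r was 0.45 for Cartpt (rho 0.39, adjusted permutation p = 0.0056) and 0.39 for Nts (rho 0.41, adjusted permutation p = 0.0141). Penk, Tac1 and Pdyn shared the relation with the excitatory markers, at r = -0.52, -0.47 and -0.44 (adjusted permutation p = 0.004, 0.0106 and 0.0206). Penk (r = 0.40, adjusted permutation p = 0.0251) and Tac1 (r = 0.40, adjusted permutation p = 0.0291) shared that with the olfactory bulb markers, and Tac1 that with the inhibitory markers (r = 0.42, adjusted permutation p = 0.0251). None of these lists holds a member, and for Cartpt and Nts, without the 2 mice farthest from the median of each list r kept its sign in all 6 relations. The summed olfactory bulb markers had medians of 17.6 CPM in ctrl-PBS, 17.5 in TDP-PBS, 20.4 in TDP-10+12 and 20.2 in TDP-15, and the 2 highest mice were ctrl-PBS replicates 280 (236 CPM) and 131 (182 CPM).

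Cort encodes cortistatin, a relative of somatostatin made by cortical interneurons. The group means of Cort lay close together while the spread was wider in the bigenic mice. In ctrl-PBS the 17 mice lay between 3.70 and 6.60 CPM (median 4.88), in TDP-PBS between 3.36 and 10.97 (median 4.80), in TDP-10+12 between 1.63 and 12.0 (median 5.71) and in TDP-15 between 1.95 and 7.94 (median 5.10). Of the 32 bigenic mice, 10 were above every ctrl-PBS mouse and 7 below every one, and the coefficient of variation was 16.1% in ctrl-PBS against 41.0%, 46.2% and 37.5% in the bigenic groups. The difference in spread was not tested. No log2 fold change passed, with 0.14 ± 0.19 in TDP-PBS, 0.29 ± 0.19 in TDP-10+12 and 0.10 ± 0.18 in TDP-15 (edgeR adjusted p = 0.582, 0.238 and 0.702).

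Whether immunization changed the precursors was asked by comparing the bigenic groups with each other. None of the 10 genes passed in TDP-10+12 against TDP-PBS, in TDP-15 against TDP-PBS or in TDP-10+12 against TDP-15. Across all 18220 genes edgeR's quasi-likelihood test also called 0 in each (0%), with 953, 552 and 1244 genes at an unadjusted p under 0.05, and DESeq2 and limma-voom also called 0 of the 10. The largest differences between TDP-15 and TDP-PBS were those of Nts (log2 fold change -0.53, 95% interval -1.19 to 0.13), Tac1 (-0.39, -0.92 to 0.14) and Penk (-0.38, -0.88 to 0.12), each with edgeR adjusted p = 0.9996. For Tac2 the intervals were narrow, from -0.28 to 0.12 in TDP-15 and from -0.26 to 0.16 in TDP-10+12 against TDP-PBS. For Adcyap1 they ran from -0.14 to 0.33 and from -0.27 to 0.23. The fall of Penk, Tac1 and Cartpt past the threshold in TDP-15 and not in TDP-PBS does not show a difference between these groups.

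The groups held 25 females and 24 males in unequal shares. No member differed between females and males with the group in the model (0 of 10, background 0.0933%), and none showed a genotype by sex interaction (0 of 10, background 0%). Crh came closest, with a log2 fold change of 0.29 for female against male (unadjusted p = 0.0309, edgeR adjusted p = 0.999). In ctrl-PBS, Crh stood at 4.01 ± 0.62 CPM in 10 females and 2.87 ± 0.85 in 7 males (mean ± SD). Tac2 stood at 11.2 ± 1.08 and 9.38 ± 1.97 CPM in the same mice. In TDP-PBS, Crh stood at 2.03 ± 0.93 CPM in 4 females and 2.78 ± 1.07 in 6 males. The TDP-PBS males thus lay near the ctrl-PBS males. Crh was 2.59 ± 0.88 CPM in 6 females and 1.65 ± 0.58 in 4 males of TDP-10+12. The values in TDP-15 were 2.64 ± 0.44 in 5 females and 2.09 ± 0.73 in 7 males.

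Within groups the members fell by r into a block that varied together and a remainder with no called pair inside it. Of the 45 pairs, 13 had an adjusted permutation p under 0.05, 10 of them positive. The block held Penk, Tac1, Pdyn, Cartpt and Nts, and all 10 pairs among these genes passed. Its closest pairs were Penk and Tac1 (r = 0.92, rho 0.91), Pdyn and Tac1 (r = 0.84, rho 0.82), Penk and Pdyn (r = 0.82, rho 0.78) and Nts and Cartpt (r = 0.71, rho 0.69), each at an unadjusted permutation p of 1e-05. The 3 negative pairs joined Adcyap1 with Penk (r = -0.45), Tac1 (r = -0.42) and Pdyn (r = -0.42). In the ctrl-PBS mice alone, r of Adcyap1 was -0.28 with Penk, -0.06 with Tac1 and -0.09 with Pdyn. A difference in r between groups was not tested. By Spearman's rho 14 pairs passed, 12 of them also by r. Pdyn and Nts, inside the block, did not pass by rho (rho 0.34, adjusted permutation p = 0.0638). Pnoc and Adcyap1, outside it, passed by rho (rho 0.36, adjusted permutation p = 0.0438) but not by r. All 13 pairs called by r kept their sign without the 2 mice farthest from the median of the pair's first-named gene. When the striatal marker mean was regressed out, Penk and Tac1 dropped to r = 0.49 and Penk and Pdyn to 0.43 (adjusted permutation p = 0.00864 and 0.0557), Nts and Cartpt stood at 0.67, and the 3 pairs of Adcyap1 lay between -0.09 and 0.03.

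**Figure D4:**
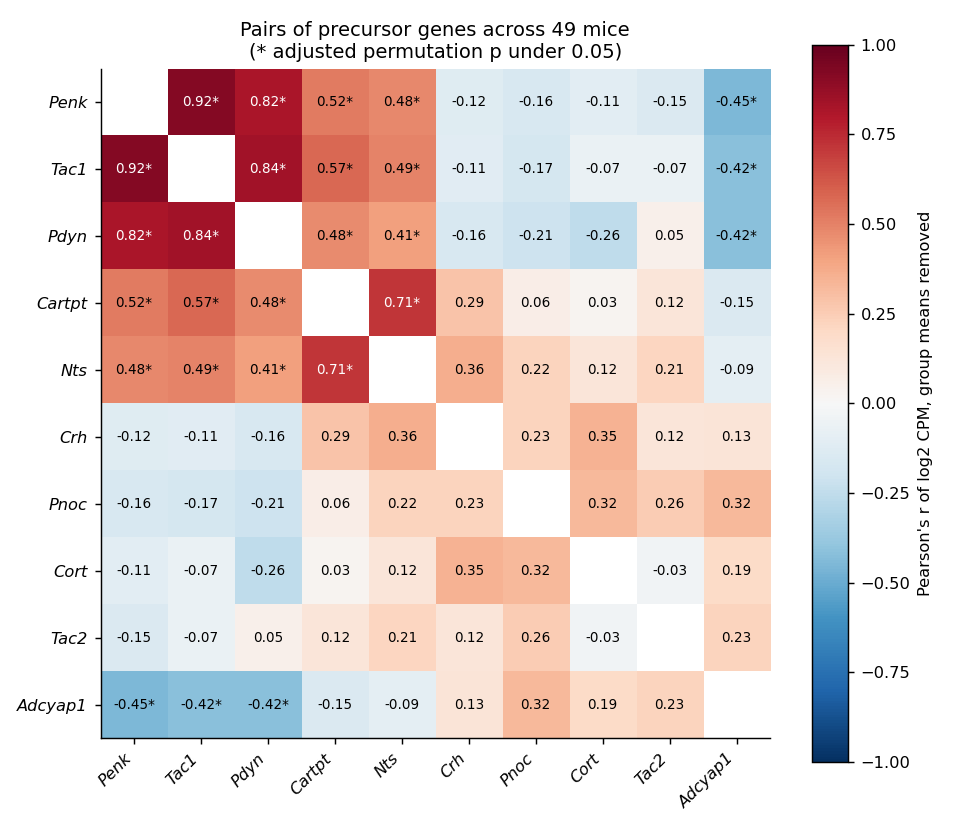
Pearson's r of log2 CPM between each pair of the 10 genes (rows and columns) across 49 mice after removal of group means; colour and number give r and a star an adjusted permutation p under 0.05. Penk, Tac1, Pdyn, Cartpt and Nts form a block with r from 0.41 to 0.92, and Adcyap1 is negative with Penk, Tac1 and Pdyn.

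The genes most like each member, by r of log2 CPM over the 49 mice with group means removed, are given as a description among 18219 other genes. For Penk they included Drd1 (r = 0.94) and Rgs9 (0.93), and they were for Tac1 Rarb (0.93), Penk (0.92) and Gng7 (0.91), and for Pdyn Strip2, Tmem158 (both 0.87) and Gnal (0.84). The dopamine receptor gene Drd1 and Rgs9 belong to the striatal list. Nts was most like Arhgap36, Ecel1 and Dlk1 (0.76 each) and Cartpt most like Ecel1 (0.74), Zcchc12 and Arhgef6 (0.72 each). The others had looser company. Tac2 was closest to Tubb2a (0.68), Fxyd6 (0.65) and Pcdh8 (0.59), Crh to Ntng1 (0.75), Slc6a13 (0.63) and Mtss2 (0.62), and Pnoc to Vgf (0.60), itself the precursor of several peptides, Nucb1 (0.59) and Prr13 (0.58). Adcyap1 was closest to Clec16a (0.62), Slc1a4 (0.58) and R3hdm1 (0.57), and Cort to 1700003M07Rik (0.64), Slc39a12 and Tspan7 (0.61 each).

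Of 20 genes for receptors of these peptides, all tested, 8 were lower and 2 higher in TDP-PBS (median log2 fold change -0.18), where 21.6% of all genes tested were lower and 21.9% higher. The extremes were Vipr2, a receptor for PACAP and VIP (-1.62 ± 0.50, edgeR adjusted p = 0.0071), and Sstr2, a somatostatin receptor that also binds cortistatin (-0.93 ± 0.11, edgeR adjusted p = 3.01e-10), against Sstr5 (0.84 ± 0.31, edgeR adjusted p = 0.0235) and Oprl1, the nociceptin receptor (0.50 ± 0.05, edgeR adjusted p = 8.64e-11). Oprl1 rose and Sstr2 fell in all 3 bigenic groups, while Vipr2 and Sstr5 passed in TDP-PBS only, with edgeR adjusted p between 0.0638 and 0.527 in the others; a difference between groups was not called for any gene. Neither the tachykinin receptors Tacr1, Tacr2 and Tacr3 nor Adcyap1r1, the PACAP-specific receptor, passed in TDP-PBS (edgeR adjusted p = 0.767, 0.473, 0.595 and 0.251), and they were picked with these values in view. TDP-10+12 had 6 lower and 1 higher of the 20, and TDP-15 had 7 lower and 1 higher, beside 20% lower and 20.8% higher, and 23.2% lower and 23.6% higher, of all genes. The 10, 7 and 8 of 20 receptor genes called were thus near or below the shares of all genes. The 7 olfactory bulb markers had a median log2 fold change of -1.64 in TDP-PBS, with 4 lower and 0 higher. Their medians were -0.43 in TDP-10+12 and -0.54 in TDP-15, with 0 called in either. The part of olfactory bulb RNA in the Vipr2 value was not tested.

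Genes that process and store the peptides were lower more often than higher. Of 16 genes for processing enzymes and dense-core vesicle proteins, 10 were lower and 1 higher in TDP-PBS, 12 lower and 2 higher in TDP-10+12, and 11 lower and 1 higher in TDP-15. Over all genes tested, 21.6%, 20% and 23.2% were lower in these comparisons. The median log2 fold changes of the 16 genes were -0.24, -0.21 and -0.23. The lowest in TDP-PBS were Cadps2, which primes dense-core vesicles for release (-0.90 ± 0.09, edgeR adjusted p = 2.44e-11), and Scg5, the chaperone of prohormone convertase 2 (-0.49 ± 0.12, edgeR adjusted p = 0.000564). The highest were Pcsk1n, an inhibitor of prohormone convertase 1 (0.29 ± 0.07, edgeR adjusted p = 0.000296), and Chga, a granin (-0.01 ± 0.10, edgeR adjusted p = 0.923).

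Among 30 other neuropeptide precursors and binding proteins 14 could be tested, since 16 were too low, and in TDP-PBS 7 of the 14 were lower and 0 higher, with 8 at an unadjusted p under 0.05. Of all genes tested, 21.6% were lower, 21.9% higher and 49.9% at an unadjusted p under 0.05. The lowest were Grp, gastrin-releasing peptide (-1.01 ± 0.21, edgeR adjusted p = 8.28e-05), and Pomc, the precursor of melanocortins and β-endorphin (-1.01 ± 0.37, edgeR adjusted p = 0.0249), and the highest Prok2 (0.29 ± 0.35, edgeR adjusted p = 0.525) and Nppc (0.12 ± 0.15, edgeR adjusted p = 0.548). Gh, the only testable pituitary marker, was lower as well (-2.48 ± 0.98, edgeR adjusted p = 0.0362), but its RNA was carried by single mice. Gh stood at 44.8 CPM in ctrl-PBS replicate 99, 19.8 in the next ctrl-PBS mouse and 0 in 7 of the 17, with a median of 0.985. For Gh the bigenic groups had medians of 0.325 (TDP-PBS), 0.435 (TDP-10+12) and 0.349 CPM (TDP-15) and highest mice at 3.82, 21.8 and 4.65. The part of pituitary RNA in the Pomc value was not tested. In TDP-10+12, 20% of all genes tested were lower and 20.8% higher, and of the 14 genes 5 were lower and 2 higher. These 2, picked with their values in view, were Trh, the precursor of thyrotropin-releasing hormone (1.01 ± 0.33, edgeR adjusted p = 0.0108), and Prok2 (0.87 ± 0.33, edgeR adjusted p = 0.031). In TDP-15, 7 of the 14 were lower and 0 higher, beside 23.2% lower and 23.6% higher of all genes tested. Among the members and these 14 genes, Tac2 was thus the only gene that rose in TDP-PBS and in TDP-15, while in TDP-10+12 Tac2, Trh and Prok2 rose. Between TDP-10+12 and TDP-PBS, 0 of the 14 passed (smallest edgeR adjusted p = 0.897). The part of neighbouring tissue in the Trh and Prok2 values was not tested.

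**Figure D5:**
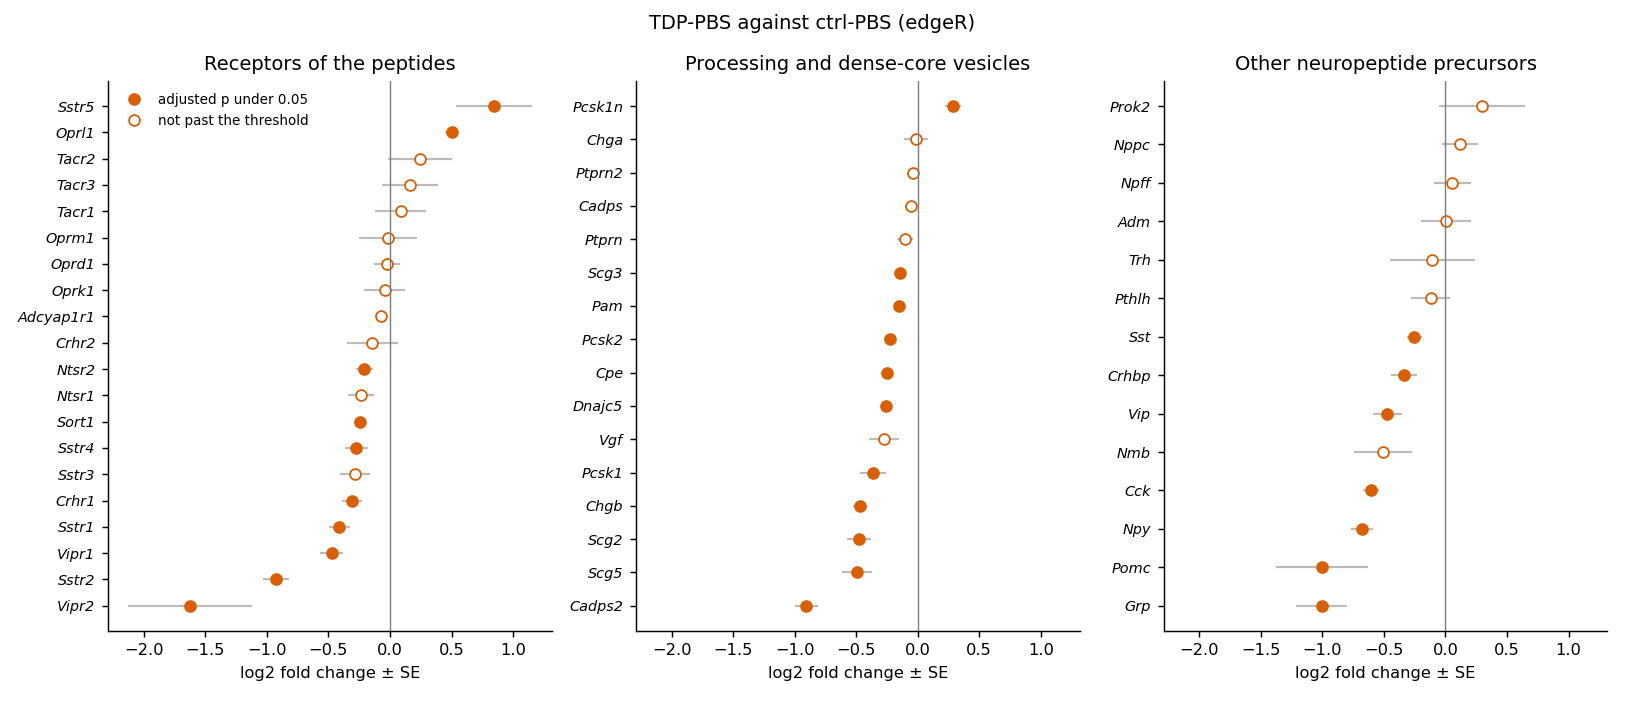
Log2 fold change in TDP-PBS against ctrl-PBS (x axis, ± SE) of receptor genes, processing and vesicle genes and other neuropeptide precursors (y axes), with filled points past an edgeR adjusted p of 0.05. Most called genes lie left of 0 in each panel; Oprl1, Sstr5 and Pcsk1n are the called genes to the right.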

How the data were processed

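RNA of about 30 mg of neocortex from each of 49 mice was made into an mRNA library from 200 ng of total RNA and sequenced by the authors as paired-end reads of 100 bp. The authors aligned to the mouse genome GRCm38 and the table they deposited holds 1 raw count for each gene in each mouse, neither normalized nor pooled. The processing notes name HISAT, HISAT2, Bowtie, Bowtie2 and RSEM with no role, and the annotation and strand setting are not given in the sources used here, so reads of overlapping or near-identical genes may be misassigned. Columns were matched to mice by the animal number, and groups came from the labels. No 2 mice shared an animal.

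Genes were filtered with filterByExpr by group (at least 10 counts, 15 in total), scaled by TMM and fitted over all 49 mice with edgeR's quasi-likelihood test, without covariates (edgeR 4.0.16, R 4.3.3), two-sided. CPM were counts scaled by the TMM library size, and 3 counts equal 0.139 to 0.165 CPM. Intervals of fold changes are at 95%. Correlations used log2 CPM (prior count 2) less the group mean, with 100000 permutations of mice within groups (Python 3.11.15, numpy 2.4.6) and Benjamini-Hochberg adjustment over the family. Alternatives were DESeq2's size factors, upper-quartile scaling, other filters, sex or the striatal marker mean as a covariate, fits of only the groups compared, DESeq2 1.42.0, limma-voom (limma 3.58.1) and each mouse left out. On counts simulated for TDP-PBS against ctrl-PBS over 18044 genes, 79% of 100 genes changed 1.5-fold and 93.9% of 99 changed 2-fold were recovered, with 11 false calls. Few genes were changed there, while 43.5% of all genes were called in the data, so these rates need not hold for the members. Promoter sequences and positions are from RefSeq (GRCm38.p6), and exon lengths from GENCODE.

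The members, gene lists and tests were chosen with earlier results of these data known. All 10 members were named in every comparison, with the 2 highest and 2 lowest genes of each list in TDP-PBS and the 3 genes most like each member. Of these genes, 2 are not reported here.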

Additional observations from a re-analysis of the deposited data

Results flagged for a closer look

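In groups of 4 to 10 mice, a highest or lowest mouse was singled out when its gap to the next, as a share of the group's range, passed Dixon's 95% critical value. This was tested in 20 combinations of member and group, those of TDP-PBS and TDP-10+12, and chance alone gives about 1 in 20. It singled out 2, both the same mouse, TDP-PBS replicate 91. Its Cort was 10.97 CPM where the next TDP-PBS mouse had 6.74, and its Pnoc was 12.9 CPM where the next had 9.39. Its Crh, at 4.64 CPM, was also the highest of the bigenic mice. No member differed in its genotype effect between the sexes.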

How the results depend on the processing

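The counts of members called stayed within 1.5 times of those reported under every alternative, including each mouse left out, where TDP-PBS against ctrl-PBS gave 2 to 3 and the mean of the bigenic groups 5 to 6. Of the 45 pairs of members, 4 passed in the 17 ctrl-PBS mice alone, a fit with fewer mice, against 13 in all. There r among Penk, Tac1 and Pdyn was 0.80 to 0.92, while r of Adcyap1 with these genes was only -0.28 to -0.06. The call of Cartpt for the mean of the bigenic groups was lost with DESeq2 (-0.38), with no filter (-0.38), with upper-quartile scaling (-0.38), with sex as a covariate (-0.38) and with the striatal covariate (-0.28). Calls of Tac2, Adcyap1, Penk and Tac1 were kept under every alternative. Sign changes were limited to values that passed no test. With limma-voom these were Nts in TDP-PBS (-0.18), Pnoc (0.00875), Tac1 (0.0218), Nts (0.15) and Cartpt (0.0325) in TDP-10+12 against TDP-PBS, and Pdyn (0.00568) and Tac1 (0.0121) for female against male. With sex as a covariate they were Pnoc for the mean of the bigenic groups (-0.0117) and in TDP-10+12 against TDP-PBS (0.0241). With the striatal covariate they were Nts in TDP-10+12 (0.0162), Pnoc for the mean of the bigenic groups (-0.0305), Pdyn (0.0460), Tac1 (0.0869) and Cartpt (0.0788) in TDP-10+12 against TDP-PBS, Pdyn in TDP-15 against TDP-PBS (0.0373), Pdyn (0.00869) and Tac1 (0.0299) for female against male, and Adcyap1 in the genotype by sex interaction (-0.0111). The cause was not tested. With at least 10 counts required in every mouse Nts was not tested. Nts and Crh rest on few counts, 7 to 70 and 22 to 99 per mouse, and counting error limits them most. No paired analysis was possible because each mouse is a separate animal and its number is used only once. Which of these p-values would hold in other litters is unknown, since litters are not given.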
